A study of Homo sapiens with 12 samples.

Results

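The 2408 peaks described here were called in Notch3 chromatin immunoprecipitation and sequencing (ChIP-seq) of neural crest cells that carried GFP without N3ICD, and lie inside or near genes. A peak was taken when its summit, the base of highest read stacking, lay on chromosomes 1 to 22 or X and inside or within 100 kb of the span of a protein-coding gene. The choice used position alone and no measured level. It gave 635 peaks in the GFP A library, 876 in GFP B and 897 in GFP C, out of 4470 GFP peaks and 12583 peaks in the 6 ChIP libraries. The other 2062 GFP peaks lay farther from genes, on chromosome Y or on the mitochondrial genome.

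All cells came from the human embryonic stem cell line H9, an established line, which was first turned into neural crest cells and analysed 6 days after they received a lentivirus. In the N3ICD group the lentivirus carried N3ICD, the intracellular domain of NOTCH3, together with GFP, and the submitters label these cells as mural. In the GFP group it carried GFP alone, and the cells are labelled as neural crest. Both groups were fixed in 1% formaldehyde, both had enzymatically digested chromatin, and both were precipitated with 1 Notch3 antibody. Each group had 3 ChIP libraries, named A, B and C, from independent differentiations of this 1 line, and 3 values given together follow that order. The 6 input libraries were not analysed here. Peaks give no RNA level, so the cell labels could not be checked against expressed markers.

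NOTCH3 is a cell surface receptor. On contact with a ligand of a neighbouring cell its intracellular domain is cut free, enters the nucleus and joins RBPJ, which binds DNA, and coactivators of the Mastermind family at target genes such as the HES and HEY repressors. Neural crest cells are a migratory embryonic population that gives rise to pericytes and smooth muscle of forebrain vessels, peripheral neurons, glia and pigment cells, and NOTCH3 is best known from the vessel wall. ChIP of cells that lack the introduced protein shows what the antibody, the chromatin digestion and the peak caller return without it; endogenous NOTCH3 on DNA would add to this and cannot be told apart from the rest here.

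The GFP peaks that reached gene starts were few beside those with N3ICD. The sequences of the closest are given first because starts are where the N3ICD peaks of the same antibody gathered. Promoter windows of 300 bases, 250 before to 50 after a start, were taken from RefSeq for 15812 protein-coding genes, 79.2% of the total, as 22132 windows. They were overlapped by 135, 318 and 532 N3ICD gene peaks, which is 8.95%, 15% and 19.1% of the gene peaks of each library. They were overlapped by 0, 3 and 7 GFP gene peaks, which is 0%, 0.342% and 0.78%. In GFP A, 0 of the 635 peaks allows a share of up to 0.472%, the limit that 3 counts give. The share of gene space that the windows cover was not computed, so these GFP shares are set against those of N3ICD alone. The 7 peaks of GFP C touched 10 windows of 8 genes (DMC1, NRIP1, PCDHGB6, SOD2, TRAF4, WTAP, ZNF117 and ZNF786), and the 3 of GFP B touched DOCK10, TMEM244 and CT83. For the 5 genes whose GFP summit lay within 100 bp of an annotated start, the 250 bases before the start follow, 5′ to 3′ on the strand of the gene, from RefSeq on GRCh38.p14. Capitals mark TGGGAA, the core of the RBPJ motif, or its reverse complement TTCCCA, whether or not the peak covered that part of the sequence.
PCDHGB6 (chr5:141407953-141408202, plus strand): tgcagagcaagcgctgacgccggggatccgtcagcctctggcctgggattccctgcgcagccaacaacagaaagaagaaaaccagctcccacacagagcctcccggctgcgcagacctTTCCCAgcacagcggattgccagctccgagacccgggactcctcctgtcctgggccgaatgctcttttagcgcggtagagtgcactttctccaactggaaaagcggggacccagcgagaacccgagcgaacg
CT83 (chrX:116462977-116463226, minus strand): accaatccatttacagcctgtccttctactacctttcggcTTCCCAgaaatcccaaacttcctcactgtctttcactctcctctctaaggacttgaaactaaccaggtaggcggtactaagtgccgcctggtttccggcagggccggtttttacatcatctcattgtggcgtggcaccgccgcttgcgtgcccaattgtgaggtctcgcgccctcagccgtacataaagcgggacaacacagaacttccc
SOD2 (chr6:159726951-159727200, minus strand): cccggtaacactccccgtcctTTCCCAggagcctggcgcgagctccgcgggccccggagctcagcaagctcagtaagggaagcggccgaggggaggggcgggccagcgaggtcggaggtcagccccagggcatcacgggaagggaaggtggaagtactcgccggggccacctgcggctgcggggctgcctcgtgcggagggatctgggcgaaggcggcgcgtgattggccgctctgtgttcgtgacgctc
TMEM244 (chr6:129861316-129861565, minus strand): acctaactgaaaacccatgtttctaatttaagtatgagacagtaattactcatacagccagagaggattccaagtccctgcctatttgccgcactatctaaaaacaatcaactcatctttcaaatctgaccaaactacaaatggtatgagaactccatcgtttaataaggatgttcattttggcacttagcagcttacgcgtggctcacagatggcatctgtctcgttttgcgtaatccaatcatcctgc
TRAF4 (chr17:28743761-28744010, plus strand): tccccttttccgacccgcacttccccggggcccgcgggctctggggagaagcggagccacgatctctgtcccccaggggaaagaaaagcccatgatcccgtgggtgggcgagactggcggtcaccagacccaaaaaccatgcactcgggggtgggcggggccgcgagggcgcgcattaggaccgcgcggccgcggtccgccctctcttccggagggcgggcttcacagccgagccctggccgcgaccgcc

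PCDHGB6, a gamma-protocadherin cell adhesion gene, had its GFP C summit 14 bp from the start, with a pileup of 12 stacked fragments and a deposited fold over background of 4.49. CT83, a cancer/testis antigen gene on chromosome X, had a GFP B summit 27 bp from the start, with a pileup of 7 and a fold of 3.63. SOD2, the mitochondrial superoxide dismutase, had a GFP C summit 69 bp from its start, with a pileup of 12 and a fold of 4.40. The same peak covered part of the neighbouring WTAP window. The marked copy of the core in the SOD2 sequence lay outside this peak, which ended at 159727045. TMEM244 (GFP B, 94 bp, pileup 8, fold 3.47) and TRAF4, a signalling adaptor gene (GFP C, 96 bp, pileup 10, fold 3.80), held no copy of the core in the 250 bases. Each of these 5 start sites was reached in 1 GFP library only, and N3ICD B also had a peak over the PCDHGB6 start.

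The core TGGGAA on either strand occurred in 20.1% of all 22132 windows. It occurred in 218 of the 1125 windows overlapped by N3ICD gene peaks (19.4%) and in 4 of the 13 windows overlapped by GFP gene peaks (30.8%), counted without a test. By library the N3ICD shares were 27.2%, 14.1% and 21.2%. The 13 GFP windows came from only 10 peaks. The median GC content was 69.2% in the windows overlapped with N3ICD and 70% in those overlapped with GFP, against 62% in all windows. It was 66.8%, 70.4% and 68.8% in the N3ICD libraries. The GFP value was mostly that of GFP C, at 70.6% over 10 windows. GFP B had 53.2% over 3 windows, and GFP A touched none.

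GFP peaks were sparse in and around genes and denser away from them. With N3ICD the summits were densest within 10 kb outside a span, at 5.15 per Mb over the 3 libraries together. The pooled N3ICD density was 3.14 inside spans and 1.78 beyond 100 kb. Each N3ICD library was highest within 10 kb of a span. N3ICD A had fewer summits per Mb inside spans (0.692) than beyond 100 kb (0.75), whereas N3ICD B and C had more inside. Over the 3 GFP libraries there were 1.14 summits per Mb inside gene spans, 0.765 within 10 kb outside a span, 1.25 at 10 to 50 kb, 1.55 at 50 to 100 kb and 2.14 beyond 100 kb. Inside spans the density was 0.278, 0.425 and 0.432 per Mb in the GFP libraries, and beyond 100 kb it was 0.600, 0.689 and 0.850. Every GFP library was lowest in the zone of 0 to 10 kb and highest beyond 100 kb. Zone sizes include assembly gaps, which lie mostly far from genes.

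**Figure D1:**
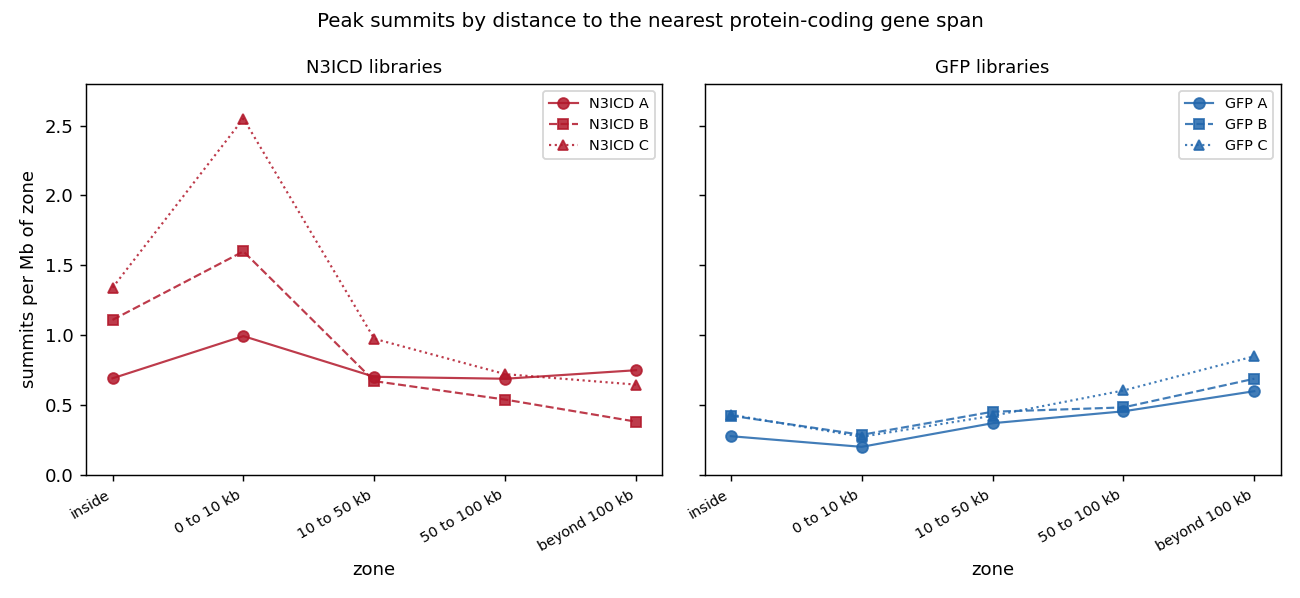
Summits per Mb (y axis) in 5 zones of distance to the nearest protein-coding gene span (x axis), one line per library, N3ICD on the left and GFP on the right. Each N3ICD line peaks at 0 to 10 kb, whereas each GFP line is lowest there and highest beyond 100 kb.

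Gene space, meaning spans and the 100 kb around them, covers 68.6% of chromosomes 1 to 22 and X. It held 67.7%, 85.3% and 81.8% of the peaks of the N3ICD libraries, and 52.1%, 57.1% and 52.2% of those of the GFP libraries. The N3ICD mean was 78.3% ± 9.31 and the GFP mean 53.8% ± 2.88 (SD, n = 3 each). The groups did not overlap, with a two-sided exact permutation p of 0.1, the smallest that 3 libraries against 3 can give, and an adjusted p of 0.167 by Benjamini-Hochberg over the 10 results tested this way. Within gene space the shares inside a span overlapped between the groups, with 61.4% ± 4.04 of N3ICD gene peaks and 59.1% ± 3.30 of GFP gene peaks inside a span (SD, n = 3 each; exact permutation p = 0.6, adjusted p = 0.75), and this difference was smaller than the spread between libraries. Among peaks inside or within 10 kb of a span the groups did not overlap, at 78.1% with N3ICD and 89.3% with GFP (exact permutation p = 0.1).

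Gene ends held few GFP summits. Summits within 1 kb of either end of a gene made up 15.3%, 29.3% and 31.8% of gene peaks in the N3ICD libraries, and 1.89%, 2.05% and 2.90% in the GFP libraries. The 95% Wilson intervals of the GFP libraries, which cover counting error only, were 1.08% to 3.27%, 1.3% to 3.22% and 1.99% to 4.21%. This zone is 3.49% of gene space, and 56 of the 2408 GFP gene peaks (2.33%) fell in it. The N3ICD mean was 25.5% ± 8.88 and the GFP mean 2.28% ± 0.541 (SD, n = 3 each; two-sided exact permutation p = 0.1, adjusted p = 0.167).

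Among these 56, the 3 of highest fold in each library were mostly weak. In GFP A they were at ZNF776 and ZNF711, zinc finger genes, and MRPL39, which encodes a mitochondrial ribosomal protein, with folds of 4.35, 4.06 and 4.08. In GFP B they were at TTC5 (fold 4.93), the zinc finger gene ZNF479 (3.87) and TAF7, a subunit of the general transcription factor TFIID (3.80). In GFP C they were at ZNF732 (5.48), RIGI, the cytosolic sensor of viral RNA (4.66), and the gamma-protocadherin peak shown above (4.49). The deposited −log10 q, the peak caller's significance corrected for the number of tests, was at most 1.07 for the 6 in GFP A and B, and 3.38, 1.91 and 1.47 at ZNF732, RIGI and the protocadherin peak.

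Summits inside genes were spread along them, as counted in 10 bins of equal length from start to end. In the N3ICD libraries the first bin, the 10% next to the start, held 23.9%, 39.3% and 39.4% of inside summits with known strand. Strand was known for 291, 428 and 452 of the 351, 536 and 545 inside summits of the GFP libraries. The first bin held 8.59%, 8.18% and 9.29% of these, and the last bin held 9.97%, 10% and 7.96%. Over the 10 bins the GFP counts ranged from 24 to 44, from 32 to 55 and from 35 to 55 summits in A, B and C, and the fourth bin had the most in each GFP library.

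**Figure D2:**
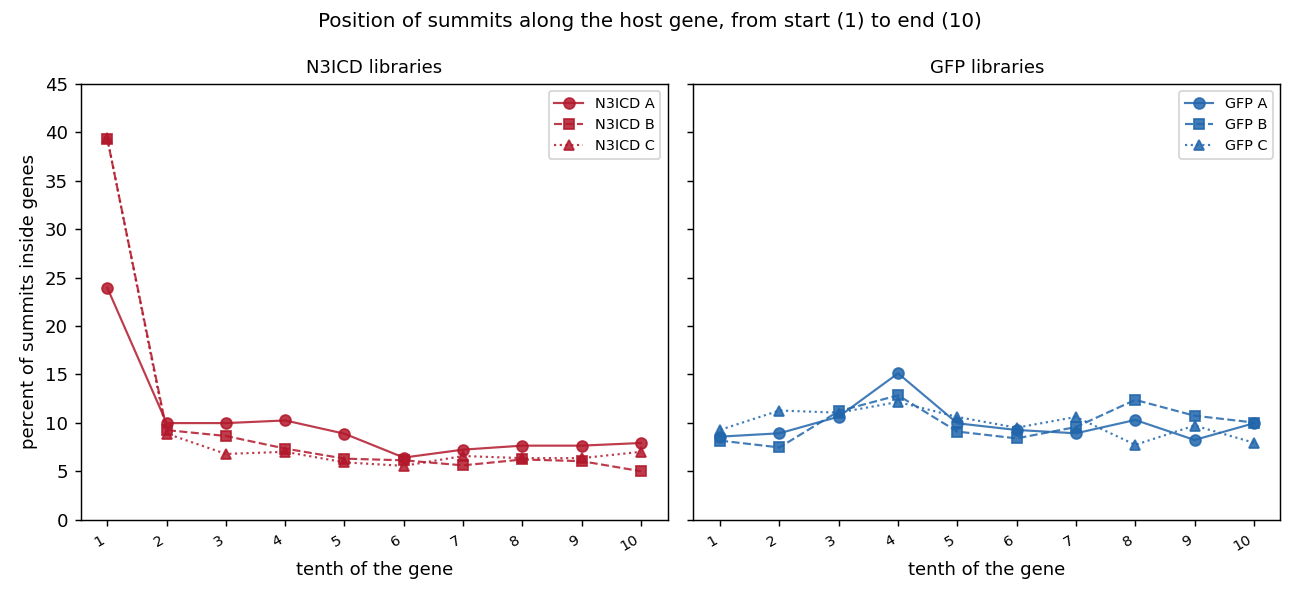
Share of summits inside genes (y axis, percent) by 10 bins of equal length along the host gene from its start (1) to its end (10), one line per library, for genes whose strand was known. The N3ICD libraries on the left start at 23.9% to 39.4% in the first bin, and the GFP libraries on the right start at 8.18% to 9.29%.

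Host genes of GFP summits were long. The median length of the gene around a summit was 159, 83.6 and 90.5 kb in the N3ICD libraries, and 275, 244 and 249 kb in the GFP libraries. The N3ICD mean was 111 ± 41.9 kb and the GFP mean 256 ± 16.6 kb (SD, n = 3 each; two-sided exact permutation p = 0.1, adjusted p = 0.167), and no GFP library came below any N3ICD library. Because a long gene has more bases for a summit to fall in, summits were also counted per Mb of gene span. Over the 3 N3ICD libraries this density was 8.46 in genes under 20 kb, 4.82 at 20 to 50 kb, 3.49 at 50 to 100 kb, 2.95 at 100 to 200 kb, 2.23 at 200 to 500 kb and 1.90 over 500 kb. Over the 3 GFP libraries it ran the other way, at 0.556, 0.915, 1.03, 0.955, 1.28 and 1.5 in the same classes. Each GFP library was lowest under 20 kb and highest over 500 kb, but GFP C did not climb evenly between, with 0.271, 0.471, 0.439, 0.279, 0.462 and 0.574 summits per Mb.

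Density in genes over 200 kb divided by that in genes under 20 kb was 0.574, 0.176 and 0.213 in the N3ICD libraries, and 2.94, 3.12 and 1.89 in the GFP libraries. The N3ICD mean was 0.321 ± 0.220 and the GFP mean 2.65 ± 0.664 (SD, n = 3 each; two-sided exact permutation p = 0.1, adjusted p = 0.167). In genes over 500 kb the libraries of the groups came close, at 0.677, 0.440 and 0.781 summits per Mb in the N3ICD libraries, and 0.379, 0.547 and 0.574 in the GFP libraries, and here the groups overlapped. The classes under 20 kb rest on few GFP summits, 9, 12 and 20 in A, B and C.

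**Figure D3:**
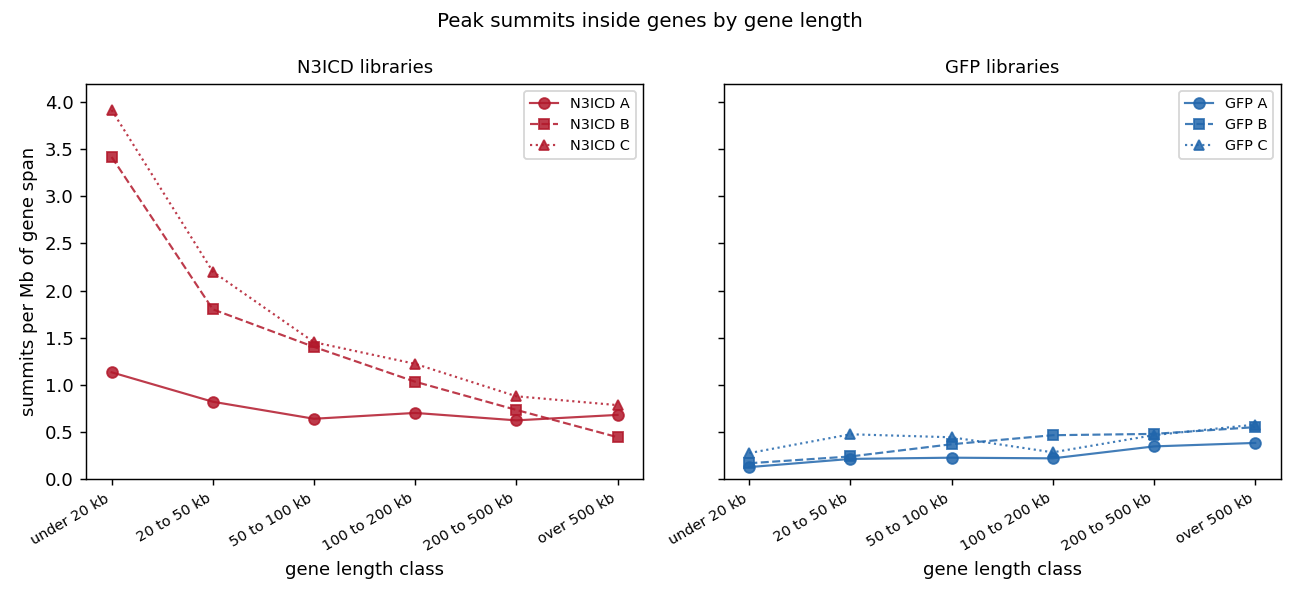
Summits per Mb of gene span (y axis) by gene length class (x axis), one line per library, N3ICD on the left and GFP on the right. N3ICD densities are highest in genes under 20 kb, while GFP densities reach 0.379, 0.547 and 0.574 per Mb in genes over 500 kb.

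An N3ICD summit lay inside 3164 of 19974 protein-coding genes (15.8%), and a GFP summit inside 1085 (5.43%). The 1085 genes had a median length of 173 kb, against 24.2 kb over all protein-coding genes. Most of them, 835, held 1 GFP summit, 149 held 2 and 50 held 3. Summits of at least 2 GFP libraries lay in 179 genes (0.896% of all) with a median length of 445 kb, and summits of all 3 in 25 genes (0.125%) with a median of 843 kb. Of the 314 genes over 500 kb, 195 (62.1%) held a GFP summit and 75 held summits of at least 2 GFP libraries. Of the 8983 genes under 20 kb, 40 held a GFP summit and none held summits of 2 GFP libraries. Of the 179 genes, 46 also held summits of at least 2 N3ICD libraries, which is 25.7% of these GFP hosts and 8.83% of the N3ICD hosts counted in the same way. Over all genes 2.61% held summits of at least 2 N3ICD libraries, and 30.6% of the genes over 500 kb did, which supplied 30 of the 46.

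The genes hit in all 3 GFP libraries were mostly very long, and 6 of these 25 are on the list of synaptic and neuronal genes used further on. DLG2, a scaffold of the postsynaptic density (chromosome 11, 83455012 to 85628373), led, with 7, 4 and 1 summits in the N3ICD libraries and 4, 1 and 4 in the GFP libraries. Its 9 GFP peaks all lay apart from each other, with pileups of 7 to 10 and folds of 2.77 to 3.96. Per Mb of span, DLG2 had 5.52 N3ICD and 4.14 GFP summits. LRP1B, a giant lipoprotein receptor family gene, held 0, 1 and 2 in the N3ICD libraries and 3, 1 and 3 in the GFP libraries. IL1RAPL1, a synaptic adhesion gene on chromosome X, held 1, 0 and 1 in the N3ICD libraries and 2, 3 and 2 in the GFP libraries. Thus DLG2 had more summits with N3ICD, and LRP1B and IL1RAPL1 had more with GFP, in counts too small to compare gene by gene.

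EYS, which encodes an extracellular protein needed by photoreceptors, had 2 summits in each GFP library, and CCSER1 had 3, 1 and 2 in the GFP libraries. PTPRD, a receptor phosphatase of synapses, had 2, 1 and 2, and PRKG1, the cGMP-dependent protein kinase of smooth muscle and neurons, had 3, 1 and 1. PDE4D (a cAMP phosphodiesterase), ERBB4 (a neuregulin receptor), DPYD (the first enzyme of pyrimidine breakdown), CAST (the calpain inhibitor calpastatin), SLC24A2 (a sodium, potassium and calcium exchanger), VAV3 (a guanine nucleotide exchange factor), COL19A1 (a collagen chain) and ZDHHC20 (a palmitoyltransferase) had 4 GFP summits each. All of these were longer than 200 kb except ZDHHC20.

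ZDHHC20 (chromosome 13, 21372571 to 21459303) is 86.7 kb long and was the one gene under 200 kb with summits of all 3 GFP libraries. It held no summit in any N3ICD library, and 1, 1 and 2 in the GFP libraries. The 4 peaks lay at separate sites, at 21452951 to 21453229 in GFP A, 21439817 to 21440064 in B, and 21440237 to 21440595 and 21447186 to 21447421 in C. Their folds were 3.22, 4.54, 3.91 and 3.26, and the highest −log10 q was 0.964, so none reached 1.3.

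Each of the 10 longest genes held a GFP summit, but in different numbers of libraries. RBFOX1, a splicing regulator of neurons, held 0, 2 and 0 GFP summits in A, B and C, CNTNAP2, a neuronal adhesion gene, held 0, 3 and 0, and CSMD1 held 0, 1 and 0. MACROD2 held 1, 0 and 0, DMD, the dystrophin gene, held 3, 0 and 2, and CTNNA3, an alpha-catenin, held 2, 4 and 0. The other 4, PTPRD, DLG2, EYS and LRP1B, were hit in all 3 GFP libraries, and the first 6 in 1 or 2 of them. GFP densities over the 10 genes ranged from 0.486 per Mb in CSMD1 and MACROD2 to 4.14 in DLG2.

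Shared host genes seldom meant shared sites. GFP A and B had 54 host genes in common, A and C had 73, and B and C had 102, which is 17.1% to 23.2% of the hosts of the first library of each pair and 11.1% to 20.9% of the second. Summits of GFP A, B and C lay in 1.58%, 2.43% and 2.44% of all genes, and in 22.6%, 33.8% and 35% of genes over 500 kb. Among these long genes, GFP B hit 38% of those with a GFP A summit and 32.5% of those without. GFP C hit 47.9% with and 31.3% without a GFP A summit, and 45.3% with and 29.8% without a GFP B summit. Overlapping GFP gene peaks numbered 2, 4 and 5 in the same pairs. With N3ICD, 198 of 6190 merged gene regions held peaks of at least 2 libraries (3.20%). Of 2398 merged GFP gene regions, 9 held peaks of at least 2 GFP libraries (0.375%), against 35 of 4432 GFP regions in all (0.79%) and 26 of the 2034 regions away from genes (1.28%). A peak of another library of the same group overlapped 6.10%, 7.44% and 6.12% of gene peaks in the N3ICD libraries and 0.787%, 0.685% and 0.892% in the GFP libraries. The N3ICD mean was 6.55% ± 0.766 and the GFP mean 0.788% ± 0.103 (SD, n = 3 each; two-sided exact permutation p = 0.1, adjusted p = 0.167). Leaving out a library gave an N3ICD mean of 3.22% without N3ICD B and 2.95% without N3ICD C, and the GFP mean was 0.272% without GFP C. With an overlap of 50% of both peaks the means were 4.09% with N3ICD and 0.218% with GFP.

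The recurring GFP region of highest rank by fold lay inside TMEM114, a transmembrane protein gene (chromosome 16, 8563418 to 8564220). N3ICD B had a peak there, with a fold of 3.66. The GFP peaks had a pileup of 17 and a fold of 6.95 in GFP A, and a pileup of 27 and a fold of 4.54 in GFP C, with −log10 q of 3.86 and 4.99. GFP B had none. TSNARE1, a t-SNARE domain gene, came next (chromosome 8, 142222754 to 142223650), with a fold of 3.59 in GFP B and 5.87 in GFP C. Its −log10 q was 0.538 in GFP B and 6.59 in GFP C, which made it the one GFP gene peak past a −log10 q of 5, and no N3ICD library had a peak there.

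The other 7 regions were weaker. CCDC171, PDE3B (a cyclic nucleotide phosphodiesterase), MRPS9 (a mitochondrial ribosomal protein), TENM1 (a teneurin adhesion protein) and ZNF727 (a zinc finger gene) held regions of 2 libraries with folds of 2.76 to 4.14 and −log10 q of at most 0.756. The region near CENPC, a centromere protein gene, was the only one found in all 3 GFP libraries (chromosome 4, 67398659 to 67399115). It lay 69709 to 70046 bp from the gene, was also called in N3ICD A (fold 2.96) and N3ICD B (2.73), and had folds of 2.85, 3.04 and 3.46 in the GFP libraries.

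The last of the 9, 2086 and 2125 bp from SLC41A2, a magnesium transporter gene (chromosome 12, 104799433 to 104800093), was high in pileup and low in fold. Its pileups of 58 in GFP A and 75 in GFP C were the highest, and its folds of 2.15 and 1.75 the lowest, of the gene peaks of those libraries. Its local background, computed from pileup and fold, came to 26.5 and 42.4 stacked fragments, or 18.1 and 22.3 times the genome-wide background of those libraries. N3ICD A had a peak there as well, with a fold of 2.22.

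Peaks of the GFP libraries that overlapped an N3ICD peak numbered 4, 5 and 17 among the gene peaks of the GFP libraries, 26 in all, against 53 of all 4470 GFP peaks (1.19%). GFP C with N3ICD B gave 12 of these overlaps, and no other pair gave more than 4. Among the 12 were peaks inside HNRNPA2B1, an RNA-binding protein gene, ZNF107, and the gamma-protocadherin cluster, with folds in N3ICD B of 3.44, 3.27 and 4.26 and folds in GFP C of 3.38, 3.68 and 4.49. NTM, a neuronal adhesion gene of the IgLON family, had peaks in N3ICD A (fold 3.09) and N3ICD B (3.08) that overlapped one in GFP B (4.44).

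Most GFP gene peaks were shallow. Their median pileup was 8, 8 and 10 stacked fragments at the summit in the GFP libraries, with lowest values of 7, 6 and 8 and highest values of 58, 18 and 75. The genome-wide background, the lowest repeated background in each library and the only measure of depth here, was 1.27, 1.58 and 0.926 in the N3ICD libraries, and 1.46, 1.21 and 1.90 in the GFP libraries. The median pileup of the gene peaks was thus 6.31, 5.69 and 7.56 times that background in the N3ICD libraries, and 5.47, 6.64 and 5.27 times in the GFP libraries. By this measure, which was not tested, the groups overlapped. The sources used here give no read totals. Not scaled for depth, the N3ICD mean of median pileup was 8 ± 1 and the GFP mean 8.67 ± 1.15 (SD, n = 3 each; two-sided exact permutation p = 0.7, adjusted p = 0.778), within the spread between libraries.

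Over all gene peaks, width and fold also overlapped between the groups. Median width was 269, 270 and 288 bp in the N3ICD libraries and 287, 268 and 280 bp in the GFP libraries (276 ± 10.7 and 278 ± 9.61 bp, SD, n = 3 each; exact permutation p = 1, adjusted p = 1). The middle 50% of GFP gene peaks ran from 255 to 327 bp in GFP A, 238 to 313 bp in B and 249 to 332 bp in C. The widest were 905 bp at ZNF274 in GFP A, 661 bp near ZFAT in GFP B and 811 bp at TSNARE1 in GFP C. Median fold was 3.53, 3.64 and 3.74 in the N3ICD libraries and 3.63, 3.63 and 3.45 in the GFP libraries (3.63 ± 0.105 and 3.57 ± 0.102, SD, n = 3 each; exact permutation p = 0.4, adjusted p = 0.571). With equal numbers of the most significant peaks taken from each library, the mean of median fold was 4.2 with N3ICD and 3.65 with GFP, and the groups did not overlap (exact permutation p = 0.1). This kept all 1219 peaks of GFP A but only the top of 2226, 2490 and 3397 peaks in the N3ICD libraries. Such a choice lifts fold most where most peaks are dropped, so it is not an even comparison of fold between the groups.

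Few GFP gene peaks were significant by the caller's own q. The level of 1.3 in −log10 q was met by 108, 310 and 611 gene peaks in the N3ICD libraries and by 11, 13 and 61 in the GFP libraries. The shares were 7.16%, 14.6% and 22% with N3ICD, and 1.73%, 1.48% and 6.80% with GFP, where the shares over all peaks of the GFP libraries were 2.13%, 1.83% and 8.09%. The N3ICD mean was 14.6% ± 7.41 and the GFP mean 3.34% ± 3 (SD, n = 3 each; two-sided exact permutation p = 0.1, adjusted p = 0.167). Without GFP C the GFP mean was 1.61%. Of the 85 GFP gene peaks at this level, 61 were from GFP C, the GFP library of highest background, and 55 lay inside a gene. Raising the level to 2 left 2, 2 and 20 in the GFP libraries.

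The peaks of highest pileup or −log10 q in each GFP library lay at genes of varied function. Those of highest pileup stood on raised local background, from 2.72 times the genome-wide one at TMEM114 to 22.3 times near SLC41A2, both in GFP C. Among them, the peaks near OR2T1 in GFP A and near CENPC and MTNR1A in GFP B had −log10 q of 0.762, 0.644 and 0.781. By pileup, GFP A had SCAPER, which encodes a cyclin A associated protein (29), and OR2T1, an olfactory receptor gene (23), after the site near SLC41A2. GFP B had POTEH, a member of a family of near-identical copies (18), the site near CENPC (18) and one 99874 bp from MTNR1A, a melatonin receptor gene (17). GFP C had a peak near PCMTD2 (54) and the peak inside TMEM114 (27) after SLC41A2. By −log10 q, the leaders beyond these were GPR39, a zinc-sensing receptor gene, tied with KYAT3 and MACROD2 in GFP A (1.73 each), HMCN1 (a basement membrane protein gene) and SLC25A20 (the carnitine carrier of mitochondria) in GFP B (2.41 each) and ANKRD30A there (1.94), and UTRN, the dystrophin relative utrophin, in GFP C (4.70).

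**Figure D4:**
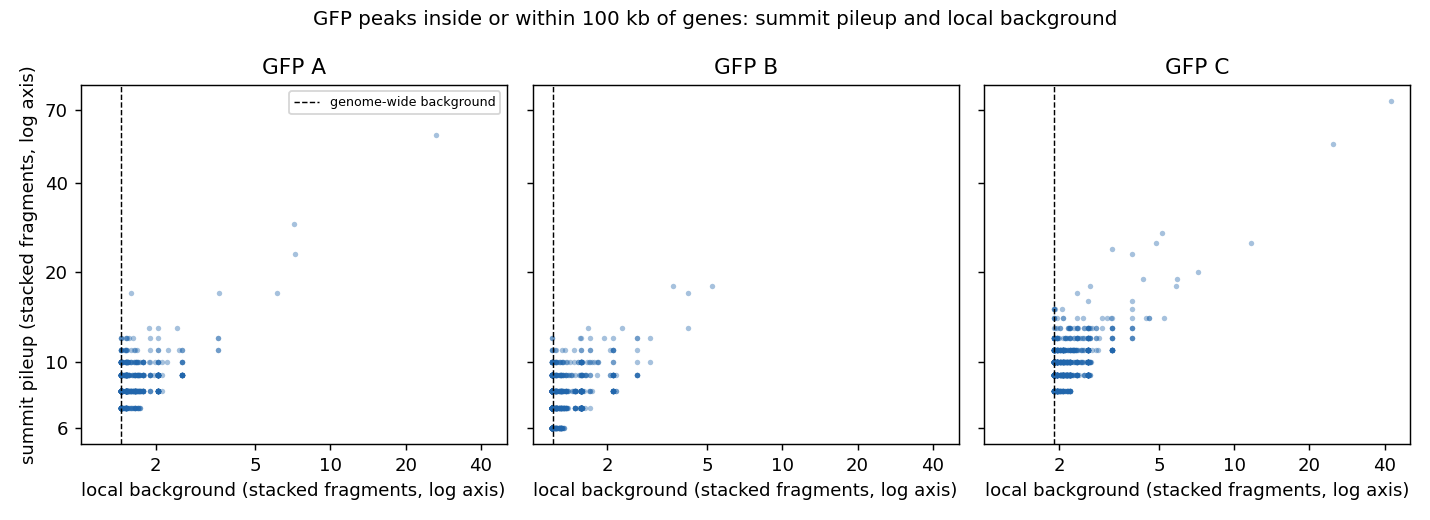
Each point is one GFP peak inside or within 100 kb of a gene, with the local background (x axis) and the summit pileup (y axis), both in stacked fragments on log axes, in the GFP libraries. Most points sit just right of the dashed genome-wide background at pileups of 6 to 12, and a few sites such as that near SLC41A2 (58 in GFP A, 75 in GFP C) are high in both.

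The gene peaks differed little from the other GFP peaks in shape, as medians without a test. Median pileup was 8, 8 and 10 in the gene peaks of the GFP libraries and 9, 8 and 10 in the other peaks of the same libraries. Median width was 287, 268 and 280 bp in the gene peaks and 291, 266 and 286 bp in the others. Median fold was 3.63, 3.63 and 3.45 in the gene peaks and 3.62, 3.61 and 3.42 in the others. A local background of at least 2 times the genome-wide one was found at 1.42%, 1.71% and 2.56% of gene peaks and at 4.97%, 5.94% and 8.89% of other peaks, lower at genes in each library. At the edge of the 100 kb limit nothing changed in size, with 55 peaks at 90 to 100 kb (median pileup 9, width 286 bp, fold 3.49) and 57 peaks at 100 to 110 kb (9, 279 bp and 3.57).

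Zinc finger genes held GFP summits although most of them are short. The family of ZNF genes, many of which encode DNA-binding repressors, has 510 members on the list used, with a median length of 23.6 kb, and 92 of them (18%) held a GFP summit, against 5.43% of all protein-coding genes. Summits per Mb of ZNF span were 1.45, 2.42 and 1.98 in the N3ICD libraries, and 0.967, 1.01 and 3.43 in the GFP libraries. In all other genes they were 0.679, 1.09 and 1.33 with N3ICD, and 0.268, 0.415 and 0.383 with GFP. The ratio of ZNF to other genes was 2.14, 2.22 and 1.49 in the N3ICD libraries, and 3.61, 2.44 and 8.96 in the GFP libraries. It was above 1 in each of the 6 libraries and highest in GFP C, which supplied 71 of the 112 GFP summits in ZNF genes. Without GFP C, 39 ZNF genes (7.65%) held a GFP summit, against 3.74% of all genes. Members of this family can resemble each other in sequence, so the place of a read among them may be uncertain. Their likeness was not measured, and the part of mapping in these counts was not tested.

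In the GFP libraries the ratio was larger against genes of the same length, and in the N3ICD libraries it was smaller, a split added after the data were seen as was that by chromosome. Among genes of 20 to 50 kb, summits per Mb of ZNF genes were 1.52, 2.13 and 1.37 in the N3ICD libraries, and 1.68, 1.37 and 6.70 in the GFP libraries. Other genes of this length had 0.785, 1.79 and 2.23 with N3ICD, and 0.143, 0.184 and 0.191 with GFP. The ratios were 1.94, 1.19 and 0.613 with N3ICD, and 11.7, 7.42 and 35 with GFP, so the groups did not overlap. On chromosome 19, where 246 of the ZNF genes lie, ZNF genes had 1.42, 1.42 and 5.26 GFP summits per Mb in A, B and C and the other 1205 genes had 0.0403, 0.121 and 0.121, from 1, 3 and 3 summits. Away from chromosome 19 the ZNF density was 0.733, 0.806 and 2.49 in the GFP libraries.

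**Figure D5:**
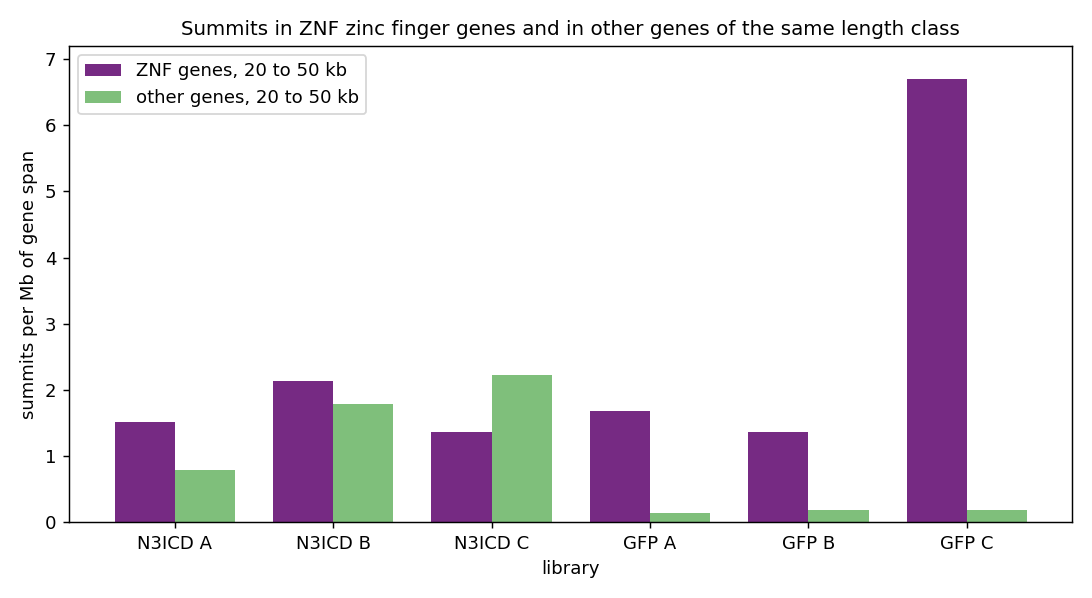
Summits per Mb of gene span (y axis, from 0) in ZNF zinc finger genes and in other genes, both of 20 to 50 kb, for each library (x axis), N3ICD left of GFP. ZNF genes stand above the other genes in N3ICD A (1.52 against 0.785) and N3ICD B (2.13 against 1.79), and below them in N3ICD C (1.37 against 2.23). They stand above them in each GFP library, at 1.68, 1.37 and 6.70 against 0.143, 0.184 and 0.191.

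The contrast between long and short hosts did not rest on ZNF genes. With them left out, also a choice made after the data were seen, genes under 20 kb had 0.0701, 0.154 and 0.182 summits per Mb in the GFP libraries, against 0.122, 0.163 and 0.271 with them. Genes over 500 kb had 0.381, 0.547 and 0.577 without them. In ZNF genes, 33.3%, 45% and 30.2% of the summits with known strand in the GFP libraries lay in the last 25% of the gene, against 24.2%, 24.5% and 19.3% in other genes. These rest on 18, 20 and 63 ZNF summits. The median width of peaks in ZNF genes was 298, 291 and 332 bp in the GFP libraries, against 286, 263 and 279 bp in other genes.

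Single ZNF genes were hit by few summits. ZNF727 (chromosome 7) had 1, 0 and 3 summits in the GFP libraries, and ZNF91, a primate repressor of transposable elements on chromosome 19, had 0, 0 and 4. ZNF268 had 0, 1 and 2, ZNF680 and ZNF708 each had 1, 0 and 2, and ZNF431 had 1, 1 and 0. ZNF595, ZNF678 and ZNF717 each had 1, 0 and 1, and ZNF891 had 0, 1 and 1. Of these 10 genes, ZNF91 (2, 0 and 2), ZNF708 (0, 1 and 0) and ZNF595 (0, 0 and 1) also held summits in the N3ICD libraries, and the other 7 held none. Summits of at least 2 GFP libraries were found in 9 ZNF genes.

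Families of clustered or near-copy genes other than ZNF differed among themselves. The gamma-protocadherin genes on chromosome 5, neuronal adhesion genes whose long spans overlap, held 0, 2 and 0 summits in the N3ICD libraries, and 0, 0 and 4 in the GFP libraries. Because the spans overlap, these 4 summits counted for 18 of 53 protocadherin cluster genes. Multicopy families of segmental duplications had a GFP summit in 6 of 255 genes (2.35%), among them ANKRD30A and POTEC, each hit in GFP B and C. Olfactory receptor genes had one in 3 of 392 (0.765%): OR14I1, OR2T35 and OR9Q1, each in 1 library. Both shares lie below the 5.43% over all genes, but these genes are short, with median lengths of 10.1 and 2.94 kb. Among genes under 20 kb, 0.445% held a GFP summit, which is below both shares. Most of the genes hit were longer than that, however. They ran from 31.6 to 193 kb in the multicopy list and were 24.6, 8.92 and 158 kb in the olfactory one. Of genes of 20 to 50 kb 2.62% held a GFP summit, and of those of 100 to 200 kb 12.2%. The lists were not matched for length, so no excess can be read from these shares. Per Mb the multicopy and olfactory lists had 1.68 and 1.05 GFP summits, beside 1.14 over all gene spans and 0.556 in genes under 20 kb.

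GFP summits were few or absent at genes of the Notch pathway and of vessel wall cells, as they were over all genes (5.43% with a GFP summit). The N3ICD libraries had 2, 1 and 4 summits within 100 kb of NOTCH3, and 2, 3 and 6 within 100 kb of NRARP. No GFP library had a summit inside or within 100 kb of NOTCH3, NRARP, a feedback inhibitor of Notch signalling, or any of the HES and HEY genes examined. The 3 GFP libraries together had 1.16 gene peaks per Mb of gene space, so few summits would fall in windows this small. This absence was not told apart from that sparseness. The nearest GFP summit to NOTCH3 was 3437, 766 and 2632 kb away in the GFP libraries, and the closest to any of these 12 genes was 140 kb from HEYL in GFP B. Of the 25 Notch target genes, 8 (32%) held an N3ICD summit and none held a GFP one. The Notch targets are short, with a median of 5.91 kb and 0.368 Mb in all, and 1.14 GFP summits per Mb over that length comes to less than 1 summit.

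Of 23 pericyte and mural markers found among the genes, 9 held an N3ICD summit (39.1%) and 1 held a GFP summit (4.35%), namely ABCC9, the regulatory subunit of a potassium channel of pericytes, in GFP A. Of 30 extracellular matrix genes, 12 held an N3ICD summit (40%), and COL5A2 in GFP A and FBN2 in GFP B, a collagen and a fibrillin, held a GFP one (6.67%). Of 24 housekeeping genes 5 held an N3ICD summit and none a GFP one, and of 81 cytosolic ribosomal protein genes 9 held an N3ICD summit and 1 (RPL7, GFP B) a GFP one. All of these shares for N3ICD stand beside 15.8% over all genes, and those for GFP beside 5.43%, to which the GFP shares of the mural and matrix lists are close.

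Of 31 neural crest genes, 6 held an N3ICD summit (19.4%) and 3 held a GFP one (9.68%), beside 15.8% and 5.43% over all genes. SOX6, a transcription factor gene of 772 kb, held 0, 1 and 1 in the N3ICD libraries and 0, 1 and 1 in the GFP libraries. Its GFP B peak reached a fold of 5.10 and a −log10 q of 1.65. Of all genes over 500 kb, 62.1% held a GFP summit. TFAP2A, a specifier of neural crest fate, and NR2F1, an orphan nuclear receptor of the neural crest, held 1 each, both in GFP B. SOX10, PAX3 and the other members of that list held no GFP summit.

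Long neuronal genes stood at the other end. Of 50 synaptic adhesion and neuronal genes of great length, 43 (86.0%) held an N3ICD summit and 41 (82.0%) held a GFP summit, and 19 held summits of at least 2 GFP libraries. Beside those above, CDH12 and CDH18, which are cadherins, held 1, 1 and 1 and 2, 3 and 0 summits in the GFP libraries. Of 16 genes of common fragile sites, where chromosomes break under replication stress, 13 held an N3ICD summit and 14 held a GFP summit, among them WWOX with 0, 2 and 1, IMMP2L with 1, 1 and 0, and FHIT with 0, 0 and 1. Per Mb, these 2 lists had 1.88 and 1.94 N3ICD summits and 1.75 and 1.72 GFP summits, beside 3.14 N3ICD and 1.14 GFP summits over all gene spans, and 1.90 N3ICD and 1.5 GFP summits in genes over 500 kb. Their members were chosen for length, and several stand on both lists.

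Chromosomes differed in how many gene peaks they held. Over the 3 GFP libraries there were 1.16 gene peaks per Mb of gene space, with the most on X (2.10), 4 (1.89) and 19 (1.72) and the fewest on 17 (0.331), 15 (0.494) and 22 (0.585). On chromosome 19 the values were 1.26, 2.10 and 2.71 in the N3ICD libraries and 0.248, 0.516 and 0.955 in the GFP libraries, beside 0.306, 0.421 and 0.432 over all chromosomes, so that it was highest in GFP C and not high in GFP A. On chromosome 17, rich in genes, they were 0.793, 1.56 and 1.61 with N3ICD and 0.101, 0.173 and 0.0576 with GFP. Across 23 chromosomes, Spearman's rank correlation of this density with genes per Mb was 0.156, 0.852 and 0.459 in the N3ICD libraries and −0.422, −0.305 and −0.314 in the GFP libraries. Pearson's r was 0.570, 0.932 and 0.824 with N3ICD and −0.296, −0.176 and 0.189 with GFP, where chromosome 19 with its many ZNF genes stands far out in gene density. Chromosomes of 1 library share its depth, so these are descriptions.

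Peaks outside spans lay at a median of 20.1, 10.6 and 9.25 kb from the nearest span in the N3ICD libraries and 35.4, 30.9 and 36.2 kb in the GFP libraries. Of these peaks, 18.4%, 21.0% and 23.8% with N3ICD and 14.1%, 17.1% and 18.5% with GFP had the summit inside an annotated long noncoding RNA gene. No feature of the gene table covered 79.6%, 76.1% and 74.2% of them with N3ICD and 84.5%, 81.5% and 78.1% with GFP.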

How the data were processed

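Peaks of 6 Notch3 ChIP libraries, 3 per group, were used, and 6 inputs were left out. The submitters' processing notes name hg38, the peak caller MACS3 3.0.0a7, the aligner Bowtie2 2.2.1, deepTools 3.5.1, bedtools 2.30.0 and SAMtools 1.11; their options and the control of each peak call are not given in the sources used here. The authors deposited 1 peak list per library, with a fold over local background (a ratio) and −log10 p and q per peak, and a table of the whole series with the summit pileup as signal. Position, fold, p and q were equal in both for all 12583 peaks. The fold describes peaks within a library.

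Local background was computed as (pileup + 1)/fold − 1, and the genome-wide background as its lowest repeated value in a library. Enzymatic digestion, per the labels' protocols, cuts open chromatin more readily. Positions are 1-based. Spans of 19974 protein-coding genes on chromosomes 1 to 22 and X came from RefSeq GRCh38.p14, whose build matches hg38; exons were not used. Where spans overlapped, the longest gene was the host. Strand and promoter windows came from the RefSeq promoter table. Peaks overlapping by at least 1 bp formed a region.

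Libraries were compared 3 against 3 by two-sided exact permutation tests (smallest p 0.1), with Benjamini-Hochberg adjustment over 10 results. Gene lists were counted beside all genes, without a test. The members and lists were chosen with earlier results of these data known. Named genes were those hit in all 3 GFP libraries (up to 15), genes at recurring regions, the peaks of highest pileup, q, width and fold at gene ends in each library, up to 10 genes per list, the 10 longest genes, and the HES and HEY genes, NRARP and NOTCH3. Others were named after their values were seen. Some genes that the rule chose are not reported here. Shared replicate letters were not treated as pairs in the main tests. The same-letter correlations of deviations over 305 bins of 10 Mb were 0.0263, 0.0257 and 0.0108. Those of different letters ranged from −0.0847 to 0.0632. Bins hold few peaks, so these values cannot decide whether the letters pair the groups. Alternatives covered distance, q, equal numbers of peaks, peak position, chromosomes, host, length classes, overlap, left-out libraries and a replicate block. The procedure was tested on simulated peaks. Versions used were SciPy 1.17.1, statsmodels 0.14.6, pandas 2.3.3, numpy 2.4.6 and matplotlib 3.10.9 under Python 3.11.15.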

Additional observations from a re-analysis of the deposited data

How the results depend on the processing

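Of 128 alternative values for the 10 tested differences between N3ICD and GFP libraries, 120 kept their direction or came to 0 and 8 changed sign, all 8 in results whose groups overlap over all gene peaks. The share of gene peaks inside a span was 11.2 percentage points lower with N3ICD (−11.2) within 10 kb of a span, where the groups did not overlap (exact permutation p = 0.1), and it was −10.6 among peaks past a −log10 q of 1.3. At that q the difference in median fold was −0.227 and that in median width 20.2 bp. The width difference was 9.17 bp with equal numbers of peaks and ranged from −8.83 to 1.67 bp with a library left out, positive without N3ICD A (0.667), N3ICD B (0.167) or GFP A (1.67). With equal numbers of peaks the fold difference was 0.557 and the groups did not overlap (exact permutation p = 0.1), against 0.0648 over all gene peaks. That choice by significance drops more peaks from the N3ICD libraries, which lifts their fold by construction. Other causes of these changes were not tested. With the replicate letter as a block, whose smallest exact p is 0.25, the share inside or near genes differed by 24.5 percentage points (p = 0.25), and no result changed its side of the threshold, which no design here can pass. The 179 genes with summits of at least 2 GFP libraries became 1 at that q, 25 with all 3 libraries required and 54 to 102 with a GFP library left out (102 without A, 73 without B, 54 without C). The 9 recurring GFP gene regions became 1 at that q, 1 with all 3 libraries required, 2 with an overlap of 50% of both peaks and 2 to 5 with a GFP library left out (5 without A, 4 without B, 2 without C). Stricter settings keep fewer peaks by construction. ZNF genes with a GFP summit, an alternative chosen after seeing the data, numbered 80, 74 and 39 without GFP A, B and C, against 92. Summits rest on about 6 to 12 stacked fragments, so most single sites cannot be told from background at this depth.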
